A study of Mus musculus with 9 samples.

Results

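The 41 genes described here encode the folding machinery of the endoplasmic reticulum (ER), the sensors and targets of its stress response, and the heat shock chaperones of the cytosol and mitochondria. They were taken by gene symbol from a table of 30519 transcripts, 1 per gene, and each of the 41 symbols had a row. By role they form 4 groups: 19 ER folding and quality control genes, 4 sensors and factors of the unfolded protein response (UPR), ATF4 with 7 of its targets, and 10 heat shock genes. The libraries were polyA RNA-seq of whole mouse liver at 6 weeks of age, from 4 miR-122 knockout (KO) animals (1 female, 3 males) and 5 floxed littermate controls, labelled WT (3 females, 2 males). The controls thus carried floxed alleles, and the sources used here give neither the strain nor the promoter behind the deletion. miR-122 is the predominant microRNA of hepatocytes and pairs with the 3′ untranslated regions (UTRs) of messenger RNAs to lower their abundance and translation. At issue was how transcript levels change in livers that lack it. The microRNA was not analysed here, and genotypes are those of the labels. Each animal was 1 replicate.

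Hepatocytes secrete most plasma proteins and keep an extensive rough ER, in which BiP (Hspa5), lectin chaperones and disulfide isomerases fold newly made chains, while the Sel1l and Syvn1 ligase complex sends failed ones to the proteasome. Unfolded protein is sensed by Ern1 (IRE1), Atf6 and Eif2ak3 (PERK). IRE1 splices Xbp1 mRNA and ATF6 is cleaved to a transcription factor, and both raise chaperone genes. PERK and other kinases phosphorylate eIF2, which slows translation in general and favours that of ATF4, an activator of amino acid supply and stress genes. This last route is the integrated stress response. Cytosolic and mitochondrial chaperones answer to separate programmes, the cytosolic ones chiefly to the factor HSF1.

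Levels are kallisto abundances as deposited, in which transcript length is accounted for and each library is divided by its own size factor. In units of M (mega), the values of a KO library summed to between 0.711 and 0.869, and those of a WT library to between 0.873 and 1.17. The reads behind them, recovered from the steps between low values, numbered 15.4 to 22.0 M per KO library and between 12.1 and 19.7 M per WT library, with both WT males lowest. The column of WT replicate 3 is named male, whereas the label of that animal, kept here, is female. Fold changes are log2 of KO over WT on the scale of log2(level + 1), tested with limma over 10950 transcripts whose mean level was at least 1. A transcript was called at an adjusted p under 0.05. Of these transcripts 35.9% were called, 21.4% higher and 14.5% lower in KO. Scaling every library to the same total moved the median log2 fold change of all transcripts from 0.03 to 0.36, a shift of 0.34, and then 47.7% were called, 45.0% higher and 2.72% lower. A direction given below is therefore a direction under the deposited scaling. Of the 38 tested genes described here 18 turned from a negative to a positive log2 fold change with equal totals: 11 of 19 in the ER folding group, 3 of 4 sensors and factors, 0 of 6 in the ATF4 arm and 4 of 9 heat shock genes. Where the call of one of the 38 ended there, the value under equal totals is given.

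The summed level of the ER folding genes overlapped between the genotypes, whereas single genes of each arm moved. Eif2ak3, Atf4 and Asns rose with Hsp90ab1. Sel1l fell, as did both subunits of the mitochondrial chaperonin, Hspd1 and Hspe1. These 7 were called of 38 that passed the filter on low levels, or 18.4%, which is below the 35.9% of all transcripts. The remaining genes, Psat1, Phgdh and Hspa1a, averaged under 1 and are given library by library. In the authors' deposited table the same 7 genes and Psat1 had a q under 0.05, 8 of 40 genes with a q, against 25.2% of all transcripts there (13.6% higher and 11.6% lower). The groups of libraries did not overlap for 6 of the 38 genes, with KO above in 3 and below in 3. Over all tested transcripts 31.1% did not overlap.

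**Figure D1:**
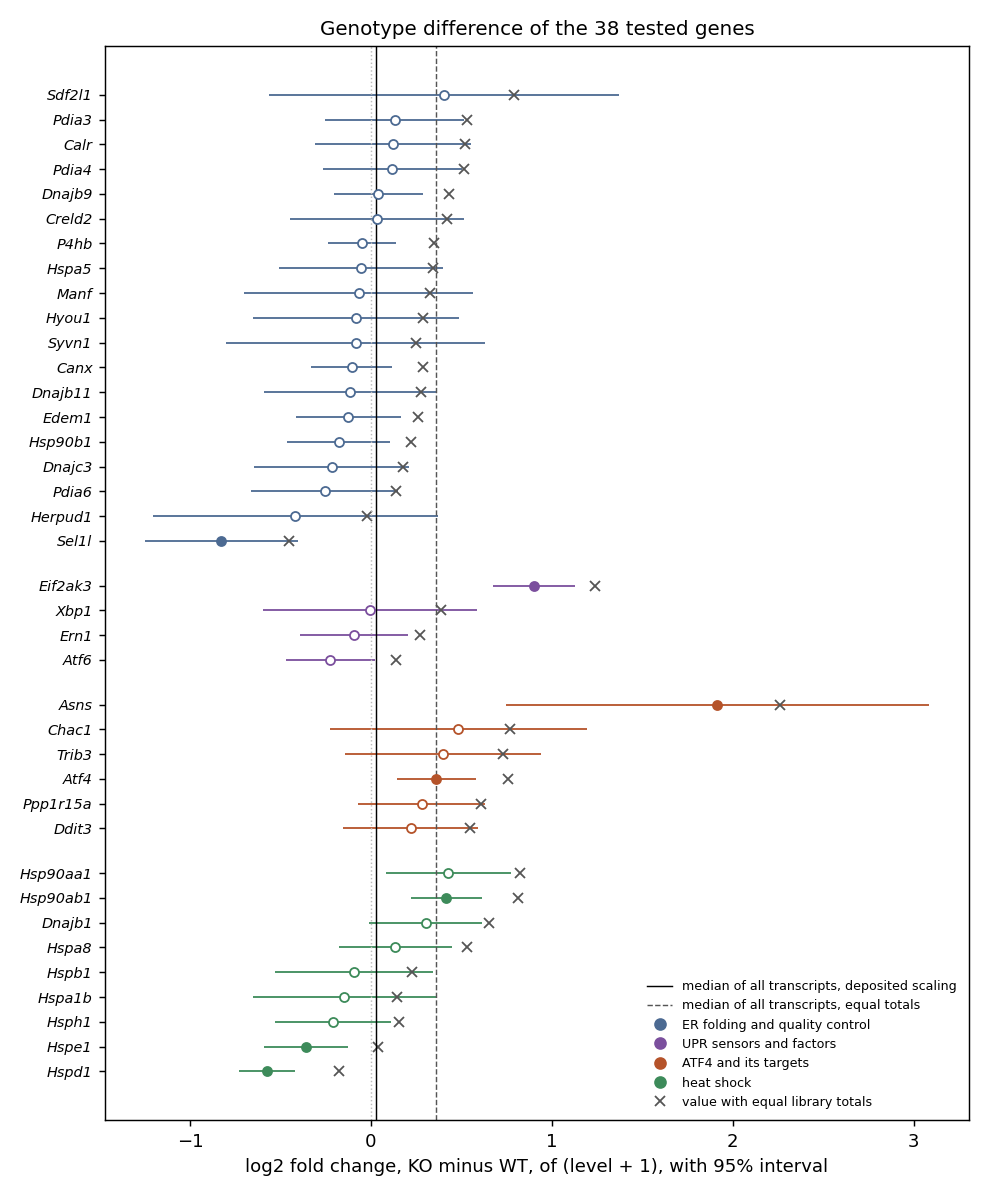
Log2 fold change of KO over WT for the 38 tested genes (x axis, with 95% interval), by group and colour, with filled circles for the 7 called genes. The solid line marks the median of all transcripts under the deposited scaling (0.03) and the dashed line that with equal library totals (0.36). Crosses give each gene's value under equal totals: they lie to the right of the circles for all genes shown, and those of the 6 tested genes of the ATF4 arm are all above 0.5.

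Several ER folding genes were among the most abundant of the 41, while others such as Syvn1 were low. Under the deposited scaling the KO and WT levels of most of the group differed little. Hsp90b1, the ER form of HSP90, lay at 383 ± 71.2 (SD, n = 4) in KO and 430 ± 36.9 (SD, n = 5) in WT. P4hb, the disulfide isomerase PDI, was at 376 ± 30.8 in KO and 388 ± 25.3 in WT. For Hspa5, the master chaperone BiP, the KO levels were 377, 227, 252 and 228 in replicates 1 to 4 and the WT levels 214, 241, 276, 276 and 397 in replicates 1 to 5. The groups overlapped from end to end: KO replicate 1 and WT replicate 5 stood well above the other livers of either genotype. Its log2 fold change was -0.05 (95% interval -0.51 to 0.40, adjusted p = 0.859, limma).

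Of the 19 genes in this group 0 were called higher and 1, Sel1l, lower by limma (the counts at an unadjusted p under 0.05 were also 0 and 1), with a median log2 fold change of -0.08 beside 0.03 for all transcripts. Log2 fold changes of the other 18 ran from -0.42 to 0.41 with adjusted p from 0.303 to 0.911, and for 16 of them the 95% interval lay within 1 of 0. The remaining intervals were wide. Sdf2l1, a component of the BiP chaperone cycle, had a log2 fold change of 0.41 (-0.56 to 1.37), and Herpud1, which helps to assemble the degradation complex, one of -0.42 (-1.203 to 0.370). Under equal totals the group's median turned to 0.29: 5 genes were then called higher (Calr, Pdia3, Pdia4, P4hb and Dnajb9) and 0 lower, below the 45.0% of all transcripts called higher on that scale, and P4hb changed its sign to 0.35 (adjusted p = 0.0342). The sign of the group's median thus depends on the scaling, and on both scales it lay below the median of all transcripts.

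Sel1l, the adaptor that feeds misfolded proteins to the Syvn1 ligase for ER-associated degradation, stood apart from the chaperones (chr12:91806043-91849157, minus strand, GRCm38). Its level was 15.6, 8.68, 13.5 and 7.75 in KO replicates 1 to 4. WT replicates 1 to 5 gave 19.0, 19.3, 18.5, 19.9 and 24.8. Every KO library was below every WT library, and the mean of 11.4 ± 3.79 (SD, n = 4) was 1.78-fold lower than 20.3 ± 2.56 (SD, n = 5). The log2 fold change was -0.83 (SE 0.19, adjusted p = 0.00798, limma) and became -0.45 (adjusted p = 0.116) under equal totals. Syvn1 itself, its partner ligase, lay at 4.74 ± 1.796 in KO and 5.37 ± 3.19 in WT (adjusted p = 0.862). Edem1, a lectin that extracts glycoproteins for the same route, lay at 28.8 ± 4.56 and 31.5 ± 4.82 (adjusted p = 0.490).

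Under the deposited scaling the ER genes did vary, but together from animal to animal and in both genotypes. KO replicate 1, the only KO female, held the highest KO level for 18 of 19 genes, although it was the highest KO library for 25.0% of all tested transcripts. WT replicate 5, a male, held the highest WT level for 16 of 19 (26.3% of all tested transcripts). With equal totals KO replicate 1 was still highest for 18 of 19 (35.1% of all tested transcripts). WT replicate 5 was then highest for 11 of 19 (7.79%) and WT replicate 1 for 5 (46.4%). The WT pattern thus depends in part on the scaling. Herpud1 did not follow the rest: it was at 66.1, 158, 46.4 and 87.9 in KO replicates 1 to 4, and at 64.5 in WT replicate 5 against 94.8 to 146 in the other WT livers. The summed level of the 19 genes was 2707, 2047, 2181 and 1932 in KO replicates 1 to 4. It was 2026, 1978, 2346, 2469 and 2818 in WT replicates 1 to 5. Under the deposited scaling both genotypes thus spanned a similar range, with means of 2217 ± 342 (SD, n = 4) and 2328 ± 344 (SD, n = 5). As a share of each library's total the sum was 2937 ± 648 per M of all values in KO (2223 to 3760). In WT it was 2297 ± 110 per M (2136 to 2416), so on that scale the WT livers spread far less than the KO livers.

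The members with the steepest swings included cofactors of BiP. Hyou1, a large HSP70-like protein that exchanges the nucleotide of BiP, was at 20.3 in KO replicate 1 and between 10.02 and 10.7 in the other KO livers. It ran from 9.41 in WT replicate 1 to 20.9 in WT replicate 5. Manf, a secreted BiP-binding factor, spanned 55.2 to 108 in KO and 45.5 to 121 in WT, and Sdf2l1 18.8 to 41.4 in KO and 9.83 to 40.9 in WT. These spans inside a genotype exceeded the difference between the genotypes' means.

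**Figure D2:**
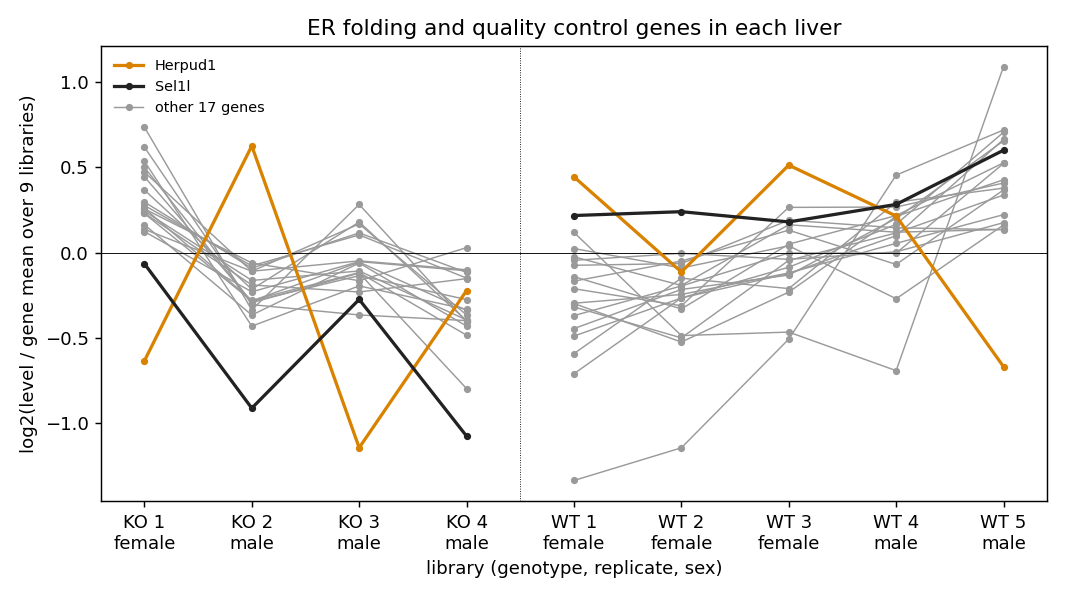
Level of each of the 19 ER folding and quality control genes in each library, as log2 of the level over the gene's mean across the 9 libraries (y axis), with libraries on the x axis and 1 line per gene. KO replicate 1 and WT replicate 5 lie high for most genes, Herpud1 (orange) is not high in either, and Sel1l (black) is below its mean in all KO and above it in all WT libraries.

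The sexes were unevenly divided, and the values within males differed from those over all animals. Among 3 KO and 2 WT males all 19 genes had negative log2 fold changes, with a median of -0.46, and 6 were called lower: Pdia6, Dnajb11, Dnajc3, Manf, Hyou1 and Sel1l. In that comparison 21.2% of all transcripts were called, 7.65% lower. It holds WT replicate 5 and not KO replicate 1. With both of these libraries left out, a choice made after their values were seen, the calls of all 38 genes were those of the full comparison. With 1 female KO liver, no within-female test was run. A term for a genotype difference that varies with sex reached an adjusted p under 0.05 for 0 of 38 genes (smallest 0.161, limma), and an unadjusted p under 0.05 for 16 of 38, beside 1173 of 10950 transcripts. Sex and single animal cannot be told apart here. The values by sex count WT replicate 3 as female by its label. Its column is named male, and no comparison with it as a male was run.

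Some promoters of the ER folding genes hold a known ER stress sequence. The genes were chosen for their roles in ER folding and stress, so its presence is descriptive and not independent support. The ER stress response element (ERSE), to which ATF6 is recruited with the CCAAT-binding factor NF-Y, was searched as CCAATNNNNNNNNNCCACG on both strands, from 250 bases before to 50 after each start (RefSeq sequences, GRCm38.p6). Promoters were found for 35 of the 41 genes. The letters were present in 8 of 17 ER folding promoters (47.1%), in 0 of the 18 promoters of the remaining groups, and in 17 of 8098 tested genes with a promoter (0.210%). The matches are shown with 10 bases on each side and the match in capitals, because these genes include the main chaperones. Calr, the second Hsp90b1 match and Creld2 carry the letters on the opposite strand.
Hspa5, chr2:34772025-34772043: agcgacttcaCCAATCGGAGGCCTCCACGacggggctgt
Hsp90b1, chr10:86705638-86705656: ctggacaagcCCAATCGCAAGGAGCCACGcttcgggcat
Hsp90b1, chr10:86705533-86705551: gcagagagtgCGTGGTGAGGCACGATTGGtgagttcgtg
Calr, chr8:84847075-84847093: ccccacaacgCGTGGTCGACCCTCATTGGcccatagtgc
Canx, chr11:50325800-50325818: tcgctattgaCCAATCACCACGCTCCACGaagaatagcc
Pdia6, chr12:17266491-17266509: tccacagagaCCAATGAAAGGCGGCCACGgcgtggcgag
Dnajc3, chr14:118937827-118937845: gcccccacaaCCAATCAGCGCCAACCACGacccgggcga
Creld2, chr15:88819520-88819538: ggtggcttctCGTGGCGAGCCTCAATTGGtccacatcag
Syvn1, chr19:6046532-6046550: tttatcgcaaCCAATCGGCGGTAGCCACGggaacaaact
Under the deposited scaling KO replicate 1 was the highest KO library for all 8 of these genes. WT replicate 5 was the highest WT library for 6 (WT replicate 3 for Canx and Hsp90b1). Over the whole ER folding group the same libraries were highest for 18 and 16 of 19 genes on that scale, so this is not particular to genes with a match. A match describes the letters and does not show binding. The whole Hspa5 promoter window of 300 bases is shown with the ERSE match in capitals; further CCAAT boxes stand in lower case.
Hspa5, chr2:34771840-34772139, plus strand: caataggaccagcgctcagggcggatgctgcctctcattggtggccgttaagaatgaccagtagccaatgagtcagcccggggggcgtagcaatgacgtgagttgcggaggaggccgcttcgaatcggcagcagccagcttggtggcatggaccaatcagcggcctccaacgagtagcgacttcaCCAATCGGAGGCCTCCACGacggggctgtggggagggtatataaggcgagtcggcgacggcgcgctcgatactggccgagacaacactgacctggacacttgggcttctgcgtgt

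Of the sensors and factors of the UPR, PERK differed between the genotypes and the other 3 did not pass the test. Eif2ak3, the gene of this eIF2 kinase (chr6:70844515-70905245, plus strand), was at 8.44, 8.84, 7.43 and 7.33 in KO replicates 1 to 4. In WT replicates 1 to 5 it was at 4.05, 3.51, 3.76, 4.62 and 3.21. No library of one genotype reached the range of the other. The mean rose 2.09-fold, from 3.83 ± 0.538 (SD, n = 5) to 8.01 ± 0.746 (SD, n = 4), a log2 fold change of 0.90 (SE 0.10, adjusted p = 0.000157, limma). It was also called among males alone (0.86, adjusted p = 0.0200), with equal totals (1.24, adjusted p = 0.000109) and, in the authors' deposited table, with q = 1.21e-15.

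Xbp1 was counted as 1 transcript, so its spliced and unspliced forms are not told apart. Its KO levels were 84.4, 77.8, 80.9 and 94.9, and its WT levels 65.1, 71.6, 64.3, 84.1 and 172. WT replicate 5 stood far above all other livers, and the KO livers lay at the upper end of the remaining WT range or above it. The log2 fold change was -0.01 (95% interval -0.60 to 0.59, adjusted p = 0.988). Atf6 was at 8.35 ± 1.30 in KO and 9.86 ± 0.941 in WT (log2 fold change -0.22, adjusted p = 0.143), and Ern1 at 9.88 ± 1.195 and 10.7 ± 1.94 (-0.09, adjusted p = 0.619). No test of splicing or of kinase activity was possible from these values.

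In the ATF4 arm the mRNAs of ATF4 itself and of asparagine synthetase rose in KO. All 6 tested genes had positive log2 fold changes, with a median of 0.38 beside 0.03 over all transcripts. Of these, 2 were called higher (33.3%, against 21.4% of all transcripts) and 0 lower. Summed over the 8 genes the level was 102 ± 8.99 (SD, n = 4) in KO and 70.4 ± 7.19 (SD, n = 5) in WT. The lowest KO sum, 94.8, was above the highest WT sum, 80.5; Atf4 made up most of it.

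Atf4 (chr15:80255184-80257541, plus strand), the transcription factor at the head of this arm, was at 61.3, 67.5, 58.5 and 75.1 in the KO and at 44.6, 54.9, 48.9, 49.2 and 56.1 in the WT livers. The groups did not overlap, but only a narrow gap separated 58.5 from 56.1. Its mean rose 1.29-fold, from 50.7 ± 4.73 to 65.6 ± 7.37, with a log2 fold change of 0.36 (SE 0.10, adjusted p = 0.0174, limma). Among males alone the value was 0.34 (adjusted p = 0.142).

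Asns (chr6:7675169-7693254, minus strand), which makes asparagine and is a classical ATF4 target, showed the largest log2 fold change of the 38 tested genes, at 1.92 (SE 0.52, adjusted p = 0.0178, limma). KO replicates 1 to 4 gave 9.82, 11.8, 18.7 and 17.02. WT replicates 1 to 5 gave 2.33, 0.685, 1.43, 4.30 and 12.1. The groups overlapped through WT replicate 5, which exceeded 2 of the KO livers. The mean was 14.3 ± 4.21 in KO and 4.17 ± 4.65 in WT, 3.43-fold higher. Without WT replicate 5 the WT mean was 2.19 and the ratio 6.55. Without KO replicate 3 the call was lost (1.78, adjusted p = 0.0532), as it was among males alone (0.99, adjusted p = 0.133).

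The enzymes that open serine synthesis, both ATF4 targets, were low in every liver but separated the genotypes. Phgdh, the first of them, was at 1.46, 1.02, 0.863 and 1.105 in KO; it was listed at 0 in 4 WT livers and at 0.0733 in WT replicate 3. Psat1, the next, was at 0.8005, 0.585, 0.925 and 0.929 in KO, and at 0.534, 0.161, 0, 0.122 and 0 in WT. Neither gene's groups overlapped. Over the tested transcripts 31.1% did not overlap, and the share among transcripts below the filter was not computed. An exact permutation test over the 9 animals, two-sided, gave p = 0.00794 for Phgdh, which is the smallest that 4 against 5 allows, and p = 0.0159 for Psat1. These genes fell below the filter; without it their log2 fold changes were 1.05 (adjusted p = 4.0e-05) and 0.65 (adjusted p = 0.00722, limma), where 21.9% of transcripts were called, 15.2% higher and 6.7% lower. Psat1 had a geometric mean of 8.41 reads per library, so its values rest on few reads. For Phgdh the authors' deposited table gives neither a q nor a mean of reads, so its read support is not known here. Its WT values at or near 0 leave almost no spread on the scale of log2(level + 1), and its small adjusted p is to be read with that limit.

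The pro-apoptotic and feedback targets did not pass the test. Ddit3 (CHOP), the factor tied to cell death under lasting stress, was at 4.96, 6.54, 4.46 and 4.92 in KO and at 3.99, 5.73, 4.26, 5.18 and 2.83 in WT. The groups overlapped, with a log2 fold change of 0.22 (95% interval -0.15 to 0.59, adjusted p = 0.335). Values of the other 3 were 0.40 for Trib3, a pseudokinase that restrains ATF4 (adjusted p = 0.231), 0.48 for Chac1, which degrades glutathione (adjusted p = 0.267), and 0.28 for Ppp1r15a (GADD34), which returns eIF2 to its unphosphorylated form (adjusted p = 0.191). With equal totals all 6 tested genes were called higher, where 45.0% of all transcripts were. Among males alone 0 were called by limma, 1 had an unadjusted p under 0.05, and the median log2 fold change was 0.38.

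The C/EBP-ATF response element (CARE), to which ATF4 binds with C/EBP partners, was searched as TGATGNAA on both strands of the same promoter windows. It was found in 3 of the 8 promoters of this arm (37.5%), in 1 of 17 ER folding promoters (Herpud1), and in 168 of 8098 tested genes (2.07%). The arm was chosen as ATF4 and its targets, so this count is descriptive and not independent support. A match here does not show binding either. The matches are given for comparison of the called gene, Asns, with the uncalled Chac1 and Trib3, whose matches lie on the opposite strand.
Asns, chr6:7693225-7693232: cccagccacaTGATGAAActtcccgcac
Chac1, chr2:119351049-119351056: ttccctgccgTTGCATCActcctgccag
Trib3, chr2:152344039-152344046: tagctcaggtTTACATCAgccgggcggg
The Asns match lies 23 bases before the RefSeq start of its window, whereas the Trib3 match lies after its own. Promoters of Atf4, Ddit3, Phgdh, Psat1 and Ppp1r15a did not hold these letters in this window.

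**Figure D3:**
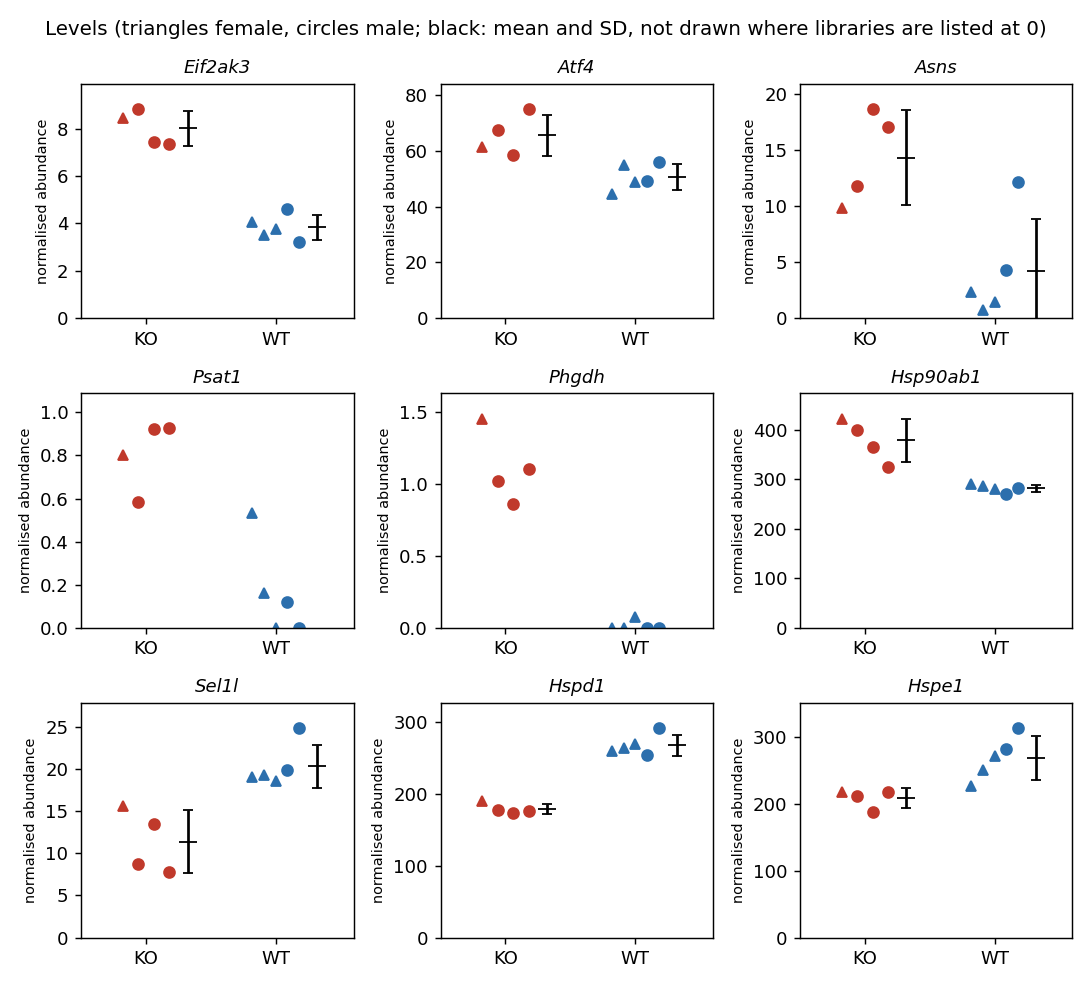
Level in each library (y axis, normalised abundance from 0, 1 panel per gene) of the 7 called genes and of Psat1 and Phgdh, by genotype, with triangles for females, circles for males and, except for Psat1 and Phgdh, the mean with SD in black. KO lies above WT in every library for Eif2ak3, Atf4, Psat1, Phgdh and Hsp90ab1, below it for Sel1l, Hspd1 and Hspe1, and overlaps it for Asns through WT replicate 5.

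Among the heat shock genes the constitutive cytosolic HSP90 rose and the mitochondrial chaperonin fell. Of 9 tested genes 1 was called higher and 2 lower (33.3% in all, beside 35.9% of all transcripts), with a median log2 fold change of -0.09. Summed over 10 genes the level was 1232 ± 90.6 in KO and 1225 ± 30.2 in WT. Per M of each library's total the sum was 1625 ± 219 in KO and 1224 ± 128 in WT. Under equal totals the count became 4 higher and 0 lower, where 45.0% and 2.72% of all transcripts were called.

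Hsp90ab1 (chr17:45567775-45573271, minus strand), the constitutive cytosolic HSP90, was at 422, 400, 366 and 325 in KO replicates 1 to 4 and at 289, 286, 280, 271 and 282 in WT replicates 1 to 5. The WT livers were nearly equal and all lay below the lowest KO liver. The mean rose 1.34-fold, from 282 ± 6.99 to 378 ± 42.7, with a log2 fold change of 0.42 (SE 0.09, adjusted p = 0.00493, limma). Among males alone it was 0.39 (adjusted p = 0.0866). Hsp90aa1, the inducible form, was at 169, 109, 125 and 113 in KO and between 80.6 and 112 in WT, with a log2 fold change of 0.43 (adjusted p = 0.0541). It passed the threshold with sex as a covariate (0.50, adjusted p = 0.0398), without WT replicate 5 (0.49, adjusted p = 0.0362) and under equal totals. Dnajb1, the HSP40 partner of HSP70, was at 8.64 ± 0.504 in KO and 6.93 ± 1.48 in WT (0.30, adjusted p = 0.121). It was called with sex as a covariate (0.41, adjusted p = 0.0252), among males alone (0.59, adjusted p = 0.0307) and under equal totals.

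The stress-inducible HSP70 genes, the usual readout of acute heat shock, were low in all livers. Hspa1b was at 1.98, 2.74, 2.68 and 4.64 in KO and at 4.54, 2.83, 2.28, 4.82 and 2.705 in WT, with overlapping groups (-0.15, adjusted p = 0.645). Hspa1a was at 0.382, 0.427, 0.401 and 0.564 in KO and at 0.166, 0.0416, 0, 0.254 and 0.487 in WT (exact permutation p = 0.0635, two-sided). The coding sequences of this pair are nearly identical, so the division of reads between them is uncertain. Hspa8, the constitutive HSP70, was at 312 ± 29.1 in KO and 287 ± 47.9 in WT (0.14, adjusted p = 0.481). Hspb1 (HSP27) and Hsph1 (HSP110) had log2 fold changes of -0.09 (adjusted p = 0.738) and -0.21 (adjusted p = 0.285). Hspa8, the HSP90 genes, Hspd1 and Hspe1 have many processed pseudogenes, which can share reads with them.

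Hspd1 (chr1:55077835-55088024, minus strand) and Hspe1 (chr1:55088132-55091307, plus strand) encode the ring (HSP60) and the lid (HSP10) of the mitochondrial chaperonin. Hspd1 was at 189, 177, 173 and 175 in KO and at 259, 263, 269, 253 and 290 in WT, 2 tight groups far apart. Its mean fell 1.49-fold, from 267 ± 14.4 to 179 ± 7.18, with a log2 fold change of -0.58 (SE 0.07, adjusted p = 0.000246, limma), and -0.63 among males alone (adjusted p = 0.0160). Hspe1 was at 218, 211, 187 and 217 in KO and at 225, 250, 271, 282 and 312 in WT. These groups nearly touched at 218 and 225. Its mean fell 1.29-fold, from 268 ± 32.7 to 208 ± 14.4 (-0.36, SE 0.10, adjusted p = 0.0229). The call was lost without KO replicate 3 (-0.31, adjusted p = 0.0689) and without WT replicate 4 (-0.34, adjusted p = 0.0502). Under equal totals Hspd1 was at -0.18 (adjusted p = 0.201) and Hspe1 turned to 0.04 (adjusted p = 0.737), so both calls rest on the deposited scaling.

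The chaperonin pair is transcribed head to head, and the annotated starts of the listed transcripts (GENCODE M21) lie 107 bases apart on opposite strands. The heat shock element (HSE), bound by HSF1, was searched as GAANNTTCNNGAA on both strands. It was present in 2 of 7 heat shock promoters by the first entry of each gene (Hspe1 and Hsph1) and in 32 of 8098 tested genes (0.395%). These genes were chosen as heat shock genes, so this count too is descriptive and not independent support, and a match does not show binding. Overlapping matches on both strands cover chr1:55088059-55088076, between the starts of Hspe1 and Hspd1, and are in capitals below.
Hspe1, chr1:55087898-55088197, plus strand: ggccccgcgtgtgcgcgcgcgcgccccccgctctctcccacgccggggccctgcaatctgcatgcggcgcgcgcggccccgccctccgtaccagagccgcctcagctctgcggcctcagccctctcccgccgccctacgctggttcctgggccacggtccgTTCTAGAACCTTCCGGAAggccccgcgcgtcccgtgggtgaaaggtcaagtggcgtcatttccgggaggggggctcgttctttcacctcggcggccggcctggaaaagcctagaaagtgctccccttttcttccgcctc
Hsph1, chr5:149636288-149636300: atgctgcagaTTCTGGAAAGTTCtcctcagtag
The Hsph1 match lies after the RefSeq starts of that gene. Hspe1 with Hspd1 fell while the value of Hsph1 did not pass the test.

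Matches to the miR-122 seed were scarce in these transcripts. The letters CACTCC, complementary to bases 2 to 7 of the microRNA, were looked for in the 3′ UTRs that GENCODE M21 gives for the listed transcripts. Of the 41 genes 6 had a match (14.6%), against 25.2% of 9834 tested transcripts with a UTR of at least 50 bases; UTR length was not adjusted for. None of the 7 called genes had one. The longer matches, of 7 bases, were in Dnajc3, a cochaperone that restrains PERK, and in Atf6, and are shown in capitals.
Dnajc3, chr14:118980052-118980058: tctcggtgcttACACTCCcacttagagcg
Atf6, chr1:170707147-170707153, minus strand: ccagaggaagtCACTCCAcctgttactag
Dnajc3 had a log2 fold change of -0.22 (adjusted p = 0.408) and Atf6 one of -0.22 (adjusted p = 0.143). Shorter matches of 6 bases were in Xbp1, Ern1, Dnajb1 and Hspa1a, which were not called either.

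Wider lists of the same pathways were read from the same test. Of 60 further ER genes 7 were called higher and 11 lower, beside 21.4% and 14.5% of all transcripts. The increases included Srprb, a subunit of the signal recognition particle receptor (1.69-fold, adjusted p = 0.00122), the ER prolyl isomerase Fkbp7 (1.78-fold, adjusted p = 0.00248), the ER-anchored factor Creb3l2 (1.77-fold, adjusted p = 0.00990) and the disulfide reductase Dnajc10 (1.32-fold, adjusted p = 0.0130). The decreases included the translocon component Sec62 (1.31-fold lower, adjusted p = 0.00152), the thioredoxin Tmx1 (1.38-fold lower, adjusted p = 0.00377) and glucosidase II (Ganab, 1.22-fold lower, adjusted p = 0.00576). With equal totals the list gave 26 higher and 0 lower, beside 45.0% and 2.72% of all transcripts, so all 11 lower calls ended, and its median turned from -0.02 to 0.36.

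Of 42 further integrated stress response genes 35 were tested, and 12 were called higher and 4 lower, beside 21.4% and 14.5% of all transcripts. Of the 12, Atf3 and Mthfd2 passed the filter only through their KO levels, which leaves 10. The increases included tryptophanyl-tRNA synthetase (Wars, 2.39-fold, adjusted p = 0.000176), seryl-tRNA synthetase (Sars, 1.67-fold, adjusted p = 0.000224) and Sesn2, a stress-induced inhibitor of growth signalling (2.17-fold, adjusted p = 0.000330). Atf3, a stress-induced transcription factor, was at 2.17, 3.38, 2.48 and 3.32 in KO replicates 1 to 4 and at 0.847, 1.08, 0.627, 0 and 0 in WT replicates 1 to 5. The synthetase genes did not move as a block. Tars, for threonine, was 1.98-fold lower (adjusted p = 0.000520) and Eprs, for glutamate and proline, 1.199-fold lower (adjusted p = 0.0440), as were Gpt2, an alanine aminotransferase (1.38-fold, adjusted p = 0.0135), and Cbs, of transsulfuration (1.23-fold, adjusted p = 0.0444). With equal totals the list gave 18 higher and 1 lower, Tars (-0.57, adjusted p = 0.0111), where 45.0% and 2.72% of all transcripts were called, so the lower calls of Eprs, Gpt2 and Cbs ended. Atf3 is also an immediate early gene, a class that responds to tissue handling: in that list 3 of 9 tested genes were called higher (Jun 3.43-fold, and Ier3 and Atf3, which passed the filter only through KO) and 0 lower, and their part in the result was not tested.

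Of 44 further heat shock and chaperone genes 40 were tested, and 2 were called higher and 10 lower, beside 21.4% and 14.5% of all transcripts. The decreases were led by mitochondrial chaperones, as with Hspd1 and Hspe1: Dnaja3, the mitochondrial HSP40 (1.90-fold lower, adjusted p = 0.000124), Hspa9, the mitochondrial HSP70 (1.63-fold lower, adjusted p = 0.000175), and Trap1, the mitochondrial HSP90 (1.49-fold lower, adjusted p = 0.000218). Cct4, a subunit of the cytosolic chaperonin, was 1.30-fold lower (adjusted p = 0.00197). Hsf1, the heat shock factor, rose 1.23-fold (adjusted p = 0.0257) and Cryab, a small heat shock protein, 1.69-fold (adjusted p = 0.0478). With equal totals the list gave 15 higher and 2 lower, where 45.0% and 2.72% of all transcripts were called, and its median turned from -0.17 to 0.20; Dnaja3 (-0.51, adjusted p = 0.0107) and Hspa9 (-0.30, adjusted p = 0.0398) were the 2 that were still lower.

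Markers of other liver cells moved with genotype, and in whole tissue a change of cell numbers and a change of RNA per cell cannot be told apart. The counts below stand beside 21.4% of all transcripts called higher and 14.5% lower. Hepatocyte markers such as Alb and Ttr were abundant throughout, with 1 of 7 called higher and 2 lower. Their median log2 fold change was -0.35, with sums of 50987 to 68185 in KO and 44967 to 111999 in WT. Cholangiocyte and progenitor markers had sums of 562 to 937 in KO livers and of 33.1 to 59.5 in those of WT, with 5 of 5 tested called higher, of which Krt19, Epcam, Sox9 and Cldn4 passed the filter only through KO. Stellate cell markers summed to 234 to 280 and 115 to 206 (6 of 7 higher, Des having passed the filter only through KO), and those of Kupffer cells and macrophages to 188 to 253 and 120 to 171 (6 of 6 higher). Endothelial markers gave 1 higher and 1 lower of 6. With equal totals 45.0% of all transcripts were called higher and 2.72% lower. On that scale the hepatocyte and endothelial lists each gave 1 higher and 0 lower, so their lower calls ended. The cholangiocyte list then gave 5 higher, the stellate cell list 7 and the Kupffer cell list 6. Plasma cells are rich in the same ER chaperones. Of 7 markers listed for plasma and B cells together 3 were tested and 2 called higher, Sdc1 and Jchain. The cell type behind either rise was not tested. Jchain, at 2.93 ± 1.10 in KO and 0.880 ± 0.220 in WT, passed the filter only through KO. Mzb1, a defining marker, was under 1 in all livers. The part of these cells in the results above was not tested.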

How the data were processed

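Livers of 4 KO and 5 WT mice formed 2 groups by labelled genotype. RNA came from frozen liver powder that was not crosslinked, was extracted with Trizol and selected for polyA, per the labels' protocols. Quantification used kallisto and sleuth on mm10, per the submitters' processing notes. The sources used here do not give versions, the transcript set or how 1 transcript per gene was chosen. The deposited library columns were treated as a normalised signal: each library's abundances over its own size factor, a reading taken from the values. The design had foreseen such values and no count test was run. The deposited p-value and q-value columns are the submitters' own. Their coefficient and mean observation are deposited as natural log values; the coefficient is WT minus KO and was converted here to log2 of KO over WT, and the exponent of the mean observation gives the geometric mean of reads, which was 49.6 to 17562 for tested genes. Between 50.6% and 57.9% of low values came out whole within 0.1 read.

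Transcripts with a mean of at least 1 were tested on log2(level + 1), which understates changes of low genes, with limma 3.58.1 (R 4.3.3), a variance trend, genotype as the only term and Benjamini-Hochberg adjustment over 10950 transcripts. Folds are ratios of group means. Low genes were compared by exact permutation over 126 arrangements of the animals. On data simulated with these group sizes (10950 genes, 200 changed) the limma step recovered 77% of the genes changed by a log2 of 1. It recovered 93% of those changed by 2, with 7 of 177 calls false. The simulation drew independent normal noise, changed far fewer genes than were called here and built in no difference of library totals. Its rates therefore need not hold for the real comparison. Members and lists were chosen with earlier results of these data known. The rule named all members called, the heads of each arm (Hspa5, Xbp1, Atf4, Ddit3, Hspa1a, Hspa1b) and up to 4 called genes per direction of each wider list. A gene that it would name is not reported here. Other members are named as examples, chosen after their values were seen. Promoter letters came from RefSeq and UTRs from GENCODE M21. Alternatives were other pseudocounts, filters, scalings, thresholds and variance settings, males alone, sex as a covariate, each library left out in turn, a block on the replicate number and the submitters' q.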

Additional observations from a re-analysis of the deposited data

Results flagged for a closer look

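Single livers stood far from the others of their genotype for 8 of 82 groups of levels (41 genes in each genotype), or 9.76%, against 6.09% over all tested transcripts. The 41 genes include 3 below the filter, whereas the 6.09% covers tested transcripts alone. The rule compares the gap between the extreme liver and its neighbour with the whole range, and chance alone marks about 1 group in 20. KO replicate 1 was the distant liver for 4 genes. Hspa5 (BiP) reached 377 there and 227 to 252 in the other KO livers, the BiP cofactor Hyou1 20.3 beside 10.02 to 10.7, the degradation lectin Edem1 35.6 beside 25.8 to 27.3, and the sensor Ern1 11.7 beside 9.19 to 9.36. WT replicate 5 was the distant liver for 3 genes: the isomerase P4hb was at 432 beside 371 to 384, the degradation adaptor Sel1l at 24.8 beside 18.5 to 19.9, and Xbp1 at 172 beside 64.3 to 84.1. Phgdh, of serine synthesis, was at 0.0733 in WT replicate 3 and listed at 0 in the other WT livers. The rule always marks a single value above 0 among zeros, so this flag carries no weight.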

How the results depend on the processing

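Called genes of each group were counted under every alternative. Over all transcripts 2345 were higher and 1589 lower in KO; a minimum mean of 5 gave 1231 higher, equal totals 4926 and 298, males alone 1493 and 843, and an adjusted p of 0.01 gave 1504 and 858. Of the ER folding genes 0 were higher and 1 lower; equal totals gave 5 and 0, and males alone 6 lower. Of the ATF4 arm 2 were higher; no filter and a minimum mean of 0.1 each gave 4, equal totals 6, males alone 0 and an adjusted p of 0.01 gave 0. Of the heat shock genes 1 was higher and 2 lower; equal totals gave 4 and 0, sex as a covariate 3 higher, and an adjusted p of 0.01 gave 1 lower. With equal totals 18 of 38 genes turned from negative to positive; of these P4hb (0.35) was called there and Hspe1 (0.039) had been called before. Leaving out 1 library at a time gave 1876 to 2438 higher and 1238 to 1616 lower over all transcripts, 1 to 2 higher in the ATF4 arm (1 without KO replicate 3), and 1 to 2 higher (2 without WT replicate 5) and 1 to 2 lower (1 without KO replicate 3 or WT replicate 4) among the heat shock genes. Where a value moved with fewer samples or genes, that is part of the alternative; otherwise the cause was not tested. Other pseudocounts, median ratio scaling, no variance trend and the submitters' q left the calls of all 38 genes on the same side. Psat1, Phgdh and Hspa1a averaged under 1 and fell below the filter of the main test. Whether depth limited them was not tested.

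Replicate numbers recur in both genotypes. With the replicate block, heat shock genes gave 2 higher and 1 lower: Hsp90aa1 was called and Hspe1 was not (adjusted p = 0.0765). WT replicate 5 has no KO partner, so the block also leaves it out of the comparison: the estimate for Hsp90aa1, 0.49, was that without WT replicate 5. Counts of the other groups kept to within 1.5 times. Deviations of same-numbered libraries correlated at 0.23, 0.08, -0.18 and 0.11, and only KO replicate 1 correlated best with its own number. These values show no pairing by number. They cannot tell whether same-numbered animals shared a litter or cage, which was not tested.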
